A study of Mus musculus with 16 samples.

Results

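The promoters of 39 genes of spermatids and sperm were asked for H3K4me3, the histone mark of active and poised promoters, in testes taken before spermatids form. The genes were listed by name and function. A gene counted as marked when a deposited H3K4me3 peak lay within 1 kb of one of its transcription start sites. Of the 39 genes, 25 had a start site that could be placed on the genome build of the peaks, among 20220 genes placed in all. A further 4 (Odf1, Acr, Catsper1 and Crem) could be placed only by the ends of the gene. The other 10 lacked a clear position: Crisp2, Pgk2, Gapdhs, Hspa1l, Spata18, Adam2, Adam3, Klhl10, Oaz3 and Smcp. Of these, 6 could be placed by a looser rule chosen after seeing the data and are given apart. Gapdhs, the glycolytic dehydrogenase of sperm, Spata18, a protein of mitochondrial quality control, and the sperm surface proteins Adam2 and Adam3 had no value.

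Chromatin of whole testes from mice 13 days old was precipitated with the H3K4me3 antibody Abcam ab8580 and sequenced. The 3 lines were B6 (C57BL/6JOlaHsd), B6-TgWT (C57BL/6J-Tg(RP23-159N6*)43Bdm) and B6-TgYF (C57BL/6JRj-Tg(RP23-159N6*)23Bdm), each with 2 ChIP libraries and 1 input behind 1 deposited peak list. The transgenes of the study are known to carry PRDM9, the meiotic methyltransferase that places H3K4me3 at recombination sites. PRDM9 is an active form in B6-TgWT and a form with a mutated catalytic domain in B6-TgYF. The names of both transgenic peak lists also carry Tgcast, where the titles of their samples carry only Tg. The allele in the transgenes may therefore differ from that of B6. The deposited B6 list has 12 in its name although its samples are labelled as 13 days old, and the C57BL/6 substrain differs between lines, so lists differ by line, not by transgene alone.

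B6 had 51170 listed peaks, B6-TgWT had 47648 and B6-TgYF had 42496. With 1 list per line there was no spread between replicates, so every comparison below is a description without a test, and read depth is unknown. Whole testis mixes somatic and germ cells, and a weak mark in many cells cannot be told apart from a strong mark in few. Marker genes of meiotic prophase had a B6 peak in 6 of the 6 placed (8 listed) and those of spermatogonia in 4 of 5 (9 listed). Markers of Sertoli cells had one in 3 of 3 (8 listed) and of Leydig cells in 3 of 4 (7 listed). A B6 peak was also at 61.6% of all genes placed and 77.8% of protein-coding genes, so these few markers do not show which cells carry the mark.

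Spermatogenesis runs from spermatogonia through meiotic prophase to haploid round spermatids, which reshape into sperm. In juvenile testes the first wave of germ cells moves through these stages together, and at this age it has reached meiotic prophase. Many genes of the sperm head and tail are transcribed only after meiosis, by factors such as CREM, while some testis isozymes are switched on in prophase. H3K4me3 is also laid down on promoters rich in CpG dinucleotides, largely whether or not the gene is transcribed.

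The sequences that follow are the 150 bases before the start site, 5′ to 3′, for 3 members of the protamine cluster without a B6 peak (Prm1, Prm2 and Tnp2), for Tnp1 and Izumo1 with weak peaks, and for Zpbp2 and Dpy19l2, with the strongest B6 peaks among members that have no other gene's start site within 2 kb. They are from RefSeq on GRCm38.p6, and capitals mark CpG dinucleotides.
Prm1 (chr16:10796824-10796973, minus strand): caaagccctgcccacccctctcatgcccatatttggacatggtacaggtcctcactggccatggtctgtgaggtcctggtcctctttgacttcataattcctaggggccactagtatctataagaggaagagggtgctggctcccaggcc
Prm2 (chr16:10792106-10792255, minus strand): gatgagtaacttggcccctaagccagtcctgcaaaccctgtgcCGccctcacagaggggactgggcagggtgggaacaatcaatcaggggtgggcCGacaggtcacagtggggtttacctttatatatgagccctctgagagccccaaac
Tnp2 (chr16:10788656-10788805, minus strand): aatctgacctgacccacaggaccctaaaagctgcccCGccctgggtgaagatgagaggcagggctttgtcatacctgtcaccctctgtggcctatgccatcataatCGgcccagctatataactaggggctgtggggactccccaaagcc
Tnp1 (chr1:73015900-73016049, minus strand): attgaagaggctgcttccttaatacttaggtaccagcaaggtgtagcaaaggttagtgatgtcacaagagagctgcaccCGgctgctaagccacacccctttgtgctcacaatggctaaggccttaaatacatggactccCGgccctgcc
Izumo1 (chr7:45621661-45621810, plus strand): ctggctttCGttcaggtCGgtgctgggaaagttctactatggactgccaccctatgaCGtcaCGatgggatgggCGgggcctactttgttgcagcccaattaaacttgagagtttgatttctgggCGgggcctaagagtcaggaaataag
Zpbp2 (chr11:98550947-98551096, plus strand): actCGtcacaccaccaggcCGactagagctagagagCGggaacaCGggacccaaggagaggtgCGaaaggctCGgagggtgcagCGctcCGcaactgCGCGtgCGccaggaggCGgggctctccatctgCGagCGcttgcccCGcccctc
Dpy19l2 (chr9:24696294-24696443, minus strand): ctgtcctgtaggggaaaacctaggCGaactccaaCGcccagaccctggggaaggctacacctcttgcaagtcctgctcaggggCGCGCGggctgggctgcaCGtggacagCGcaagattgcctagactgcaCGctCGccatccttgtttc
Prm1 had 0 CpG in this stretch, and Prm2, Tnp2 and Tnp1 had 2 each. Izumo1 had 6, Dpy19l2 9 and Zpbp2 15.

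In the B6 list 12 of the 25 placed members were marked (48.0%, 95% Wilson interval 30 to 66.5), beside 61.6% of all genes placed and 77.8% of protein-coding genes. All 12 were marked in every list, which was again 48.0% of the placed members, beside 58.6% of all genes placed and 75.8% of protein-coding genes. Of the 12458 genes with a B6 peak, 11842 were marked in all 3 lists. The B6-TgYF list marked the same 12 and no other, where the shares were 60.0% of all genes and 76.7% of protein-coding genes. The B6-TgWT list marked 15 (60.0%, interval 40.7 to 76.6), where the shares were 59.7% of all genes and 76.5% of protein-coding genes. The additional 3 were Prm2, Prm3 and Tssk2. No list had a peak at 10 of the 25 members, near the 37.4% of all genes placed. The intervals cover counting over genes only.

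By role, marked members in B6 were 1 of 5 genes of nuclear packaging, 5 of 9 placed genes of the acrosome and gamete binding, 2 of 4 of the flagellum and its ion channel, 2 of 4 kinases, the 1 placed glycolytic enzyme and 1 of 2 others. Where fold enrichments are given, they are the authors' values over background on a linear scale. Percentiles rank a peak by that fold among all peaks of its own list. Folds from separate lists show no change between lines by themselves.

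**Figure D1:**
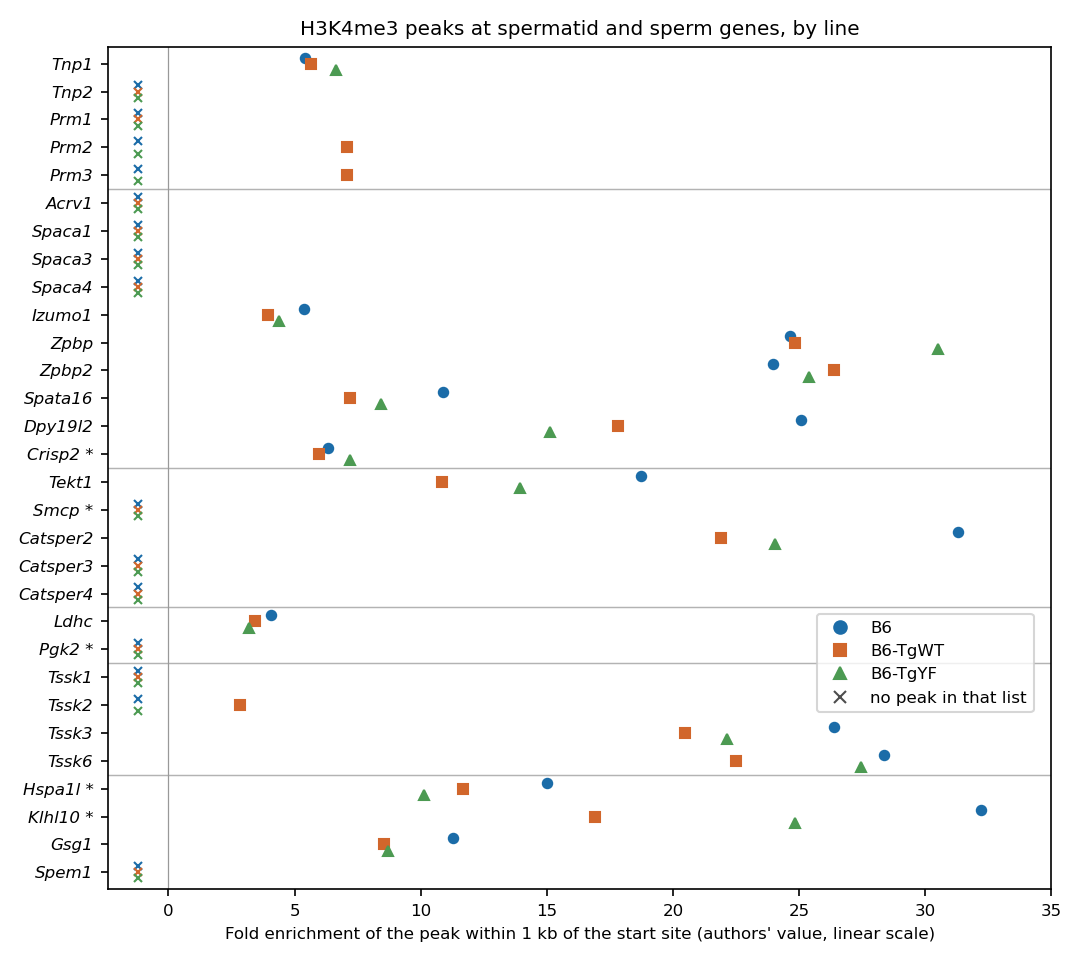
Fold enrichment of the H3K4me3 peak within 1 kb of the start site of each member (horizontal axis, linear scale) in B6 (circles), B6-TgWT (squares) and B6-TgYF (triangles). Crosses left of 0 mark members with no peak in a list, asterisks mark members placed by the looser rule, and lines separate the roles; marked members range from 2.82 at Tssk2 to 32.2 at Klhl10.

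Nuclear packaging proteins replace histones during sperm head condensation, and Prm3 was listed with their genes. The role had the lowest share marked in B6, 1 of 5, beside 61.6% of all genes placed. All of these genes but Tnp1 lie in 1 cluster, so the count rests on few loci. Tnp1, transition protein 1, was the one marked in all 3 lists, with folds of 5.43 (B6), 5.63 (B6-TgWT) and 6.63 (B6-TgYF). These peaks were weak, at percentiles 32.8, 38.8 and 44.1, and narrow, at 863, 719 and 520 bp. The B6 peak lay at chr1:73061784-73062646 (mm9) and covered the start site, which lies 137 bp from that of the gene 1700027A15Rik. A peak there cannot be given to Tnp1 alone.

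Prm1 and Prm2, the protamines that package sperm DNA, Prm3, which encodes an acidic protein, and Tnp2, transition protein 2, lie in 1 cluster, all transcribed in the same direction. None of the 4 was marked in B6 or B6-TgYF. From the start of Prm1 the nearest B6 peak lay 9666 bp away, over the start site of Socs1, a suppressor of cytokine signalling, which follows Tnp2. That Socs1 peak had a fold of 30.6 (B6), 22.7 (B6-TgWT) and 26.1 (B6-TgYF), and its edge lay 1498, 1694 and 1644 bp from the start of Tnp2. Tnp2 was therefore just outside the 1 kb limit, and so was the kinase gene Tssk1 at 1577 bp in B6. Of the members just inside it, Gsg1 had its B6 peak 537 bp from the start site and Tssk3 64 bp from it.

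The B6-TgWT list held 1 further peak in the cluster, at chr16:10791282-10792317 (mm9). It ran from 82 bp upstream to 953 bp downstream of the start of Prm2, with its summit 515 bp downstream, and ended 238 bp upstream of the start of Prm3. Its fold was 7.06, at percentile 51.7, and its −log10 p was 44.5. The nearest B6 peak began 3995 bp away and the nearest B6-TgYF peak 4141 bp away.

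**Figure D2:**
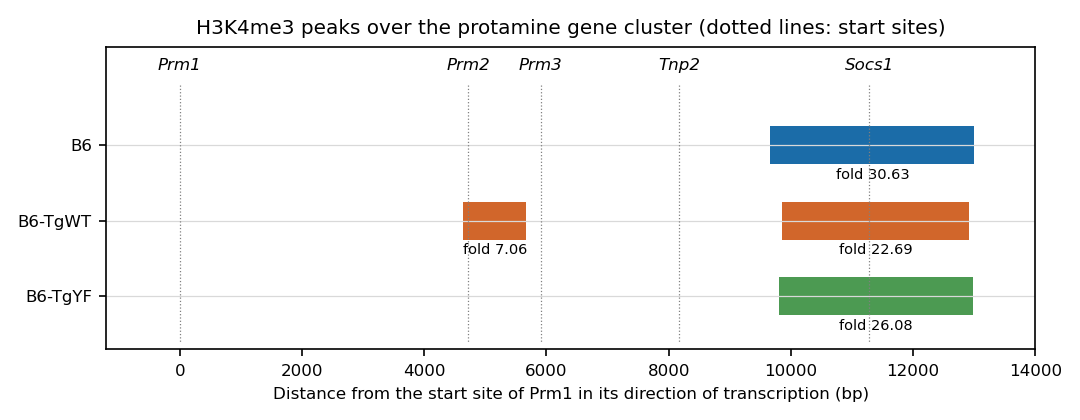
Peaks over the protamine cluster, as distance in bp from the start site of Prm1 in its direction of transcription, with 1 row per line; dotted lines mark start sites and numbers give the fold. The peak at Socs1 is in all 3 rows, and the peak over Prm2, with a fold of 7.06, is in the B6-TgWT row alone.

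Among genes without a B6 peak, 2.32% had a B6-TgWT peak and 0.296% a B6-TgYF peak. Of the 13 members without a B6 peak, 3 had a B6-TgWT peak and 0 a B6-TgYF peak. These 3 rest on 2 peaks, since Prm2 and Prm3 share 1. The other lay at Tssk2, with a fold of 2.82 at percentile 0.136, among the lowest of its list.

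Acrosome genes were split between strong, weak and no marking. Zpbp and Zpbp2, zona pellucida-binding proteins of the acrosome, had strong peaks. Zpbp had folds of 24.65 (B6), 24.9 (B6-TgWT) and 30.5 (B6-TgYF), at percentiles 84.1, 92.2 and 95.03. Zpbp2 had 23.95, 26.4 and 25.4, at percentiles 83.2, 94.3 and 87.1. The B6 peak of Zpbp lay at chr11:11361054-11362979 (mm9). Spata48 starts 1325 bp from Zpbp, while Zpbp2 had no other start site within 2 kb. The B6 peak of Zpbp2, at chr11:98411499-98413285 (mm9), was 1787 bp wide with its summit 351 bp downstream of the start.

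Dpy19l2, which anchors the acrosome to the nucleus, had folds of 25.1, 17.8 and 15.1 in B6, B6-TgWT and B6-TgYF, with a B6 peak at chr9:24499867-24501459 (mm9). Spata16, needed to form the acrosome, had 10.9, 7.21 and 8.43, near the middle of each list at percentiles 62.6, 52.9 and 54.1, with a B6 peak at chr3:26535971-26537071 (mm9). Both had no other start site within 2 kb. Izumo1, the sperm protein that binds the egg receptor at fusion, had only 5.39, 3.94 and 4.40. Its percentiles were 32.5, 12 and 21.2, so it was weak in every list, with a B6 peak of 780 bp at chr7:52876744-52877523 (mm9) across the start site.

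Acrv1 and the acrosomal membrane proteins Spaca1, Spaca3 and Spaca4 were marked in no list. In B6 the nearest peak was 32574 bp from the start of Acrv1, 10898 bp from Spaca1, 3049 bp from Spaca3 and 6468 bp from Spaca4. Acrv1 and Spaca3 were unmarked although other genes start close by, 1700027I24Rik at 31 bp and 4930507D10Rik at 63 bp. Acr, the acrosomal protease acrosin, had no peak within 1 kb of either end of the gene in any list.

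In the flagellum, Catsper2, a pore subunit of the sperm calcium channel, carried the strongest B6 peak among placed members, with folds of 31.3 (B6), 21.9 (B6-TgWT) and 24.05 (B6-TgYF). That peak, at chr2:121238498-121241216 (mm9), also covers the start of the widely expressed gene Pdia3, 110 bp away, and cannot be given to Catsper2 alone. Catsper3 and Catsper4, which form the same pore, were unmarked in all 3 lists, and the nearest B6 peaks lay 8903 and 10300 bp from their starts. Catsper1, a further pore subunit, had no peak within 1 kb of either gene end. The 4 pore genes thus differed. The marked Catsper2 starts next to another gene, but so does the unmarked Catsper3, 111 bp from the start of 4930451E10Rik.

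Tekt1, a tektin of the axoneme, had folds of 18.7, 10.8 and 13.95 in B6, B6-TgWT and B6-TgYF, with summits at -378, -314 and -377 bp, upstream of its start. Its B6 peak lay at chr11:72174763-72176067 (mm9), and Gm34317 starts 29 bp from the start of Tekt1. Odf1, an outer dense fibre protein, had a peak at the higher-numbered end of the gene in all 3 lists, with folds of 10.2, 4.69 and 6.48, and none at the lower end. The gene table used gave no strand for genes placed by ends, so which end holds the start is not given here.

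Ldhc, the lactate dehydrogenase of male germ cells, is transcribed from meiotic prophase on. It had folds of 4.07 (B6), 3.43 (B6-TgWT) and 3.19 (B6-TgYF), low in each list at percentiles 16.7, 3.09 and 1.69. The B6 peak, at chr7:54116194-54116727 (mm9), was only 534 bp wide, and Gm39011 starts 19 bp from Ldhc.

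The testis-specific serine kinases were marked in 2 of 4 cases, both beside other genes. Tssk6 had folds of 28.4, 22.5 and 27.5 in B6, B6-TgWT and B6-TgYF, in a wide peak (3411 bp in B6, at chr8:72424852-72428262, mm9) that also covers the start of Ndufa13, a subunit of mitochondrial complex I, 164 bp away. Tssk3 had 26.4, 20.5 and 22.2, with summits at -1076, -1006 and -1079 bp, upstream of its own start. Its B6 peak lay at chr4:129167994-129169544 (mm9), and the start of Fam229a lies 420 bp from that of Tssk3. Tssk1 was unmarked in all lists and Tssk2 in B6 and B6-TgYF. The nearest B6 peak to both, with a fold of 36.7, lay 1577 bp from Tssk1 and 6011 bp from Tssk2.

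Gsg1, a germ cell protein that binds a testis poly(A) polymerase, had folds of 11.3 (B6), 8.56 (B6-TgWT) and 8.72 (B6-TgYF). Its peaks began 537, 379 and 549 bp downstream of the start site and covered it in no list, with the B6 peak at chr6:135201821-135203559 (mm9). Spem1, which acts in the removal of spermatid cytoplasm, was unmarked, with the nearest B6 peak 3134 bp away. Crem, the activator of postmeiotic genes, had a peak at the higher-numbered gene end in all 3 lists, with folds of 19.5, 19.3 and 26.4.

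**Figure D3:**
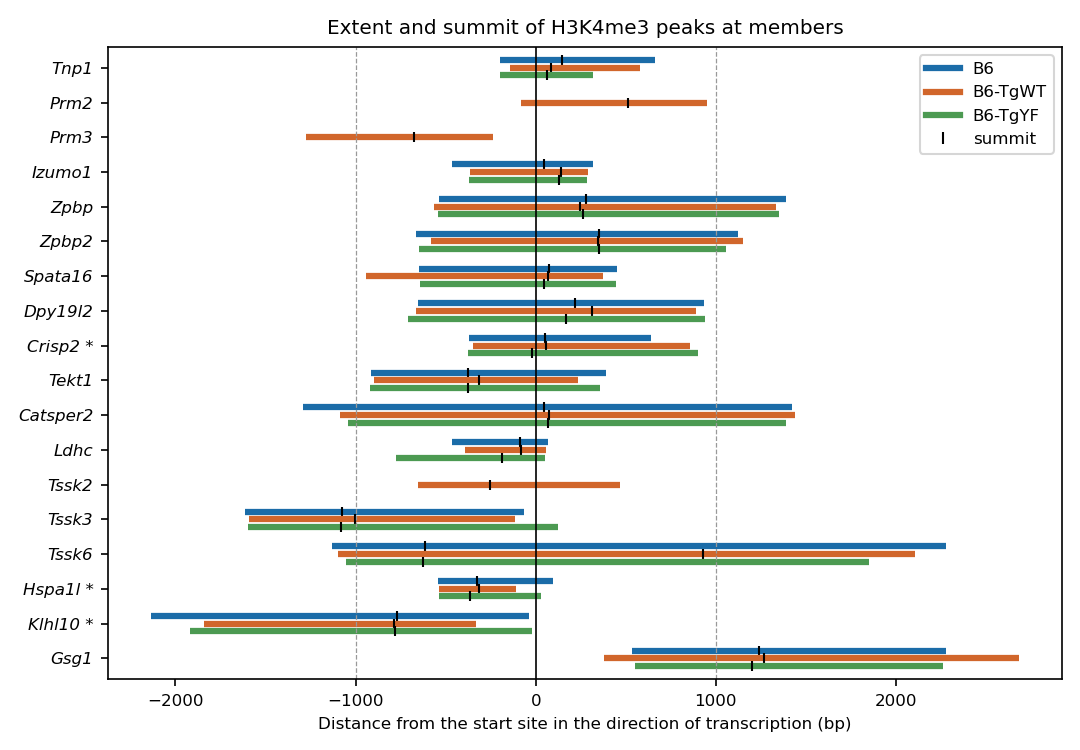
Extent (bars) and summit (ticks) of each peak around the start site of its member, in bp in the direction of transcription, with 1 colour per line; dashed lines mark 1 kb and asterisks mark members placed by the looser rule. Bars of the 3 lines lie close together at most members, and those of Tssk3, Klhl10 and Gsg1 lie mainly to 1 side of the start.

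The looser rule placed a gene between the nearest clear neighbourhoods where both gave the same offset. It added 5 start sites, of which 3 were marked in all 3 lists, giving 15 of 30 in B6, beside 59.2% of all genes placed under that rule. Crisp2, a cysteine-rich protein of the acrosome, had folds of 6.33, 5.98 and 7.19 in B6, B6-TgWT and B6-TgYF. Klhl10, an adaptor of a ubiquitin ligase in spermatids, had 32.2, 16.9 and 24.9 beside the start of Nt5c3b, 116 bp away. Hspa1l, a testis member of the HSP70 chaperones, had 15, 11.7 and 10.1, and the stress gene Hspa1a starts 547 bp from it.

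Pgk2, the phosphoglycerate kinase of male germ cells, and Smcp, a protein of the sperm mitochondrial capsule, were unmarked under that rule. The nearest B6 peak to Pgk2 was 277642 bp away. Oaz3, the antizyme of spermatids, had a peak at the higher-numbered gene end, with folds of 6.72, 5.17 and 4.88, and none at the lower end.

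By the time of first transcription known for these genes, 2 of 11 placed members first transcribed in round spermatids were marked in B6 (Tnp1 and Tssk6), as were the 2 placed members transcribed from meiotic prophase on (Ldhc and Catsper2). Of the 12 placed members not sorted by time, 8 were marked. The share of all genes placed was 61.6%. Only 2 of the 8 listed prophase members had a clearly placed start. Of the others, Acr had no peak at either gene end, and Pgk2 had none under the looser rule. Crisp2 was marked under that rule, and Crem had a peak at 1 gene end. Among spermatid members that rule added Klhl10 as marked and Smcp as unmarked. Tnp1, Tssk6, Ldhc and Catsper2 all start within 2 kb of another gene, and so do Prm2, Acrv1 and Catsper3, which were unmarked in B6. Among members with no other start site within 2 kb, 5 of 13 were marked in B6 (Izumo1, Zpbp2, Spata16, Dpy19l2 and Gsg1), beside 54.1% of such genes in all. Where another start lay within 2 kb, 7 of 12 were marked (58.3%), beside 90.4% of such genes in all.

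Peaks at marked members had lower medians than those at marked promoters in general. Their median B6 fold was 21.3, at a median percentile of 79.9, against 25.01 and 84.6 for all marked genes. This median rests on peaks shared with other genes. The 5 marked members with no other start site within 2 kb had a median fold of 11.3, at percentile 63.7, against 23.7 for all such marked genes. The 7 with one had 24.6, at percentile 84.1, against 27.4. The median width was 1572 bp against 2029 bp. In B6-TgWT the median fold was 14.3 over the same 12 members, or 8.56 over all 15 marked there, against 19.4 over all marked genes. In B6-TgYF it was 14.5 over the 12 against 22.4. Their −log10 p in B6 ran from 25.3 at Ldhc to 552.8 at Catsper2. Of the 12 B6 peaks, 10 covered the start site. In the stronger 50% of the list were 9 of the 12, beside 90.4% of all marked genes.

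At the 12 members marked in all lists, the ratio of the B6-TgWT fold to the B6 fold had a median of 0.768 (0.578 at Tekt1 to 1.10 at Zpbp2), beside 0.767 over all genes marked in all lists. The ratio of B6-TgYF to B6 had a median of 0.8001 (0.604 at Dpy19l2 to 1.24 at Zpbp), beside 0.868. Tnp1, Zpbp and Zpbp2, 3 of the 12, had a higher fold in both transgenic lists than in B6, as did 11.8% of all genes marked in all lists. The share of genes above B6 was 15% in B6-TgWT and 25.7% in B6-TgYF, and the members' count was 3 in each.

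CpG content was higher in marked than in unmarked members, with Spaca1 and Spaca3 as exceptions, and the choice of members did not use it. It was measured as the CpG count over that expected from the C and G content, in the RefSeq promoter of 300 bases (250 before the start and 50 after), taking the highest value of a gene's start sites. The median was 0.469 for the 12 members with a B6 peak (0.312 to 1.01) and 0.147 for the 13 without (0.0487 at Prm1 to 0.539 at Spaca1). Over all genes placed it was 0.738 with and 0.192 without a B6 peak, so the median of the marked members lay below that of marked promoters in general. Catsper2, Tekt1, Zpbp2 and Dpy19l2 lay above the general median. GC content itself had medians of 54.7% in marked and 54% in unmarked members, so these medians lay close together while those of the CpG ratio did not. Over all genes placed the GC medians were 60.7% with and 47% without a B6 peak.

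Genes were sorted by this ratio into 3 equal classes. In the lowest class 16.9% of genes had a B6 peak and 0 of 11 members, among them Prm1, Prm2, Prm3, Tnp2, Acrv1, Spaca4, Spem1, Catsper3, Catsper4, Tssk1 and Tssk2. The middle class had 69.2% of genes and 8 of 10 members marked, the exceptions being Spaca1 and Spaca3. In the highest class 98.6% of genes and 4 of 4 members were marked, namely Catsper2, Dpy19l2, Tekt1 and Zpbp2. The sequences printed above were chosen by their peaks and are examples only. They run from 0 CpG at Prm1 to 15 at Zpbp2, but the marked Tnp1 had 2, as had Prm2 and Tnp2.

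**Figure D4:**
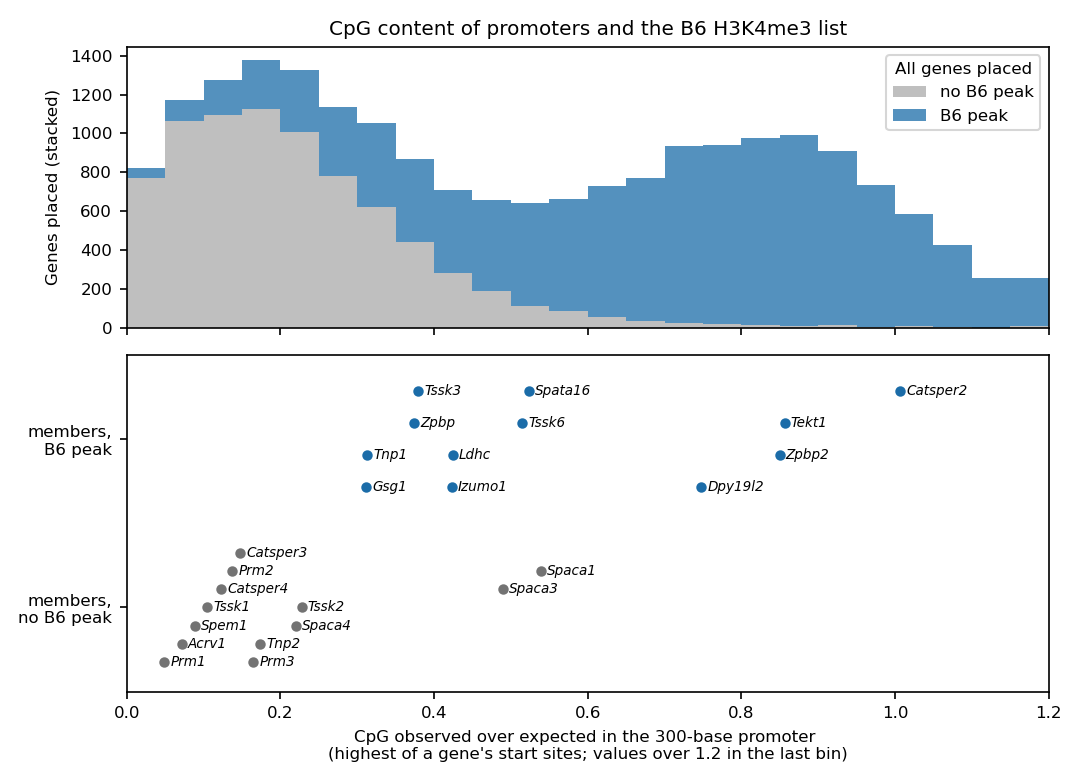
CpG observed over expected in promoters of 300 bases (horizontal axis). The upper panel stacks the number of all genes placed with (blue) and without (grey) a B6 peak, and the lower panel shows each member, with the marked ones at 0.312 and above and 11 of the 13 unmarked ones below that.

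Motif letters were searched in the same promoters. TGACG, the short form of the cAMP response element that CREM binds, on either strand, was in 9 of 25 members (36.0%) and in 22.9% of all promoters. It was in 7 of 12 members with a B6 peak, where the share of all marked genes was 29.9%, and in 2 of 13 without, where it was 11.6%. TGACG holds a CpG itself, so this split cannot be told apart from that of the CpG ratio. Only these exact letters were searched, not other forms of the element. The full element TGACGTCA, which contains TGACG, was in Izumo1 alone and in 2.02% of all promoters. In the printed stretch of Izumo1 it reads tgaCGtca.

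The MYB-type letters AACNGNC, on either strand, were in 7 members (28.0%) and 33.4% of all promoters, and 6 of the 7 were members with a B6 peak. Over all genes the letters were in 32.9% of promoters with and 34.1% without a B6 peak. GTTGCC, part of the X-box, on either strand, was in Tekt1 and Spem1, and in 12.7% of all promoters. TATAAA on the sense strand was in 0 members and 7.41% of all promoters. Only these exact letters were searched, and the printed stretches of Prm2 and Tnp2 hold the similar letters tatata. The count of 0 does not show that these promoters lack a TATA box. A match is a string of letters and does not show a bound site.

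Other gene lists give the scale. Of 43 other placed genes of spermatids and sperm, 26 were marked in B6 (60.5%, interval 45.6 to 73.6). The share was 61.6% of all genes placed and 77.8% of protein-coding genes placed, the latter above that interval. Of those marked in all lists, Tbpl1, a TBP-like factor of spermatids, and Catsperd, an auxiliary channel subunit, had the highest B6 folds, 37.5 and 37.0 (Catsperd with another gene's start site within 2 kb), and the tektins Tekt3 and Tekt4 the lowest, 7.14 and 5.15. Meiotic prophase genes were marked in 21 of 22 cases (95.5%) and genes of other tissues, such as liver, muscle and eye, in 5 of 28 (17.9%). The interval of the members, 30 to 66.5, lay below that of the prophase genes, 78.2 to 99.2, and overlapped that of the genes of other tissues, 7.88 to 35.6.

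**Figure D5:**
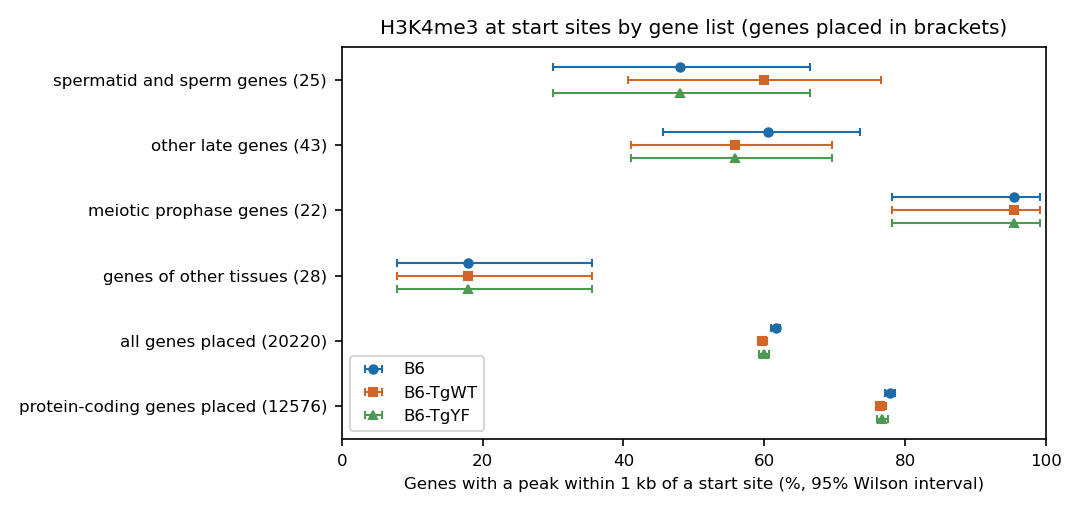
Share of genes with a peak within 1 kb of a start site (%, with 95% Wilson intervals) for each gene list in B6, B6-TgWT and B6-TgYF; the number of genes placed is in brackets. The members, at 48.0% in B6, lie between the genes of other tissues at 17.9% and the meiotic prophase genes at 95.5%.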

How the data were processed

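Each line had 1 H3K4me3 peak list deposited by the authors, to which the labels of its ChIP libraries and of its input refer. The tools CASAVA, Bowtie2, BWA and MACS2 stand in the submitters' processing notes without role or version, and so does the build, mm9. How replicates were combined is not given in the sources used here. The deposited lists hold no header and were read as MACS peak files: a score, a fold enrichment (a ratio over background), −log10 p and the summit's position, all the authors' values, used only to describe or rank peaks within a list.

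An annotation of mm9 was not used here. Start sites of RefSeq on GRCm38.p6 were converted by a constant offset in 2 steps. The first offset put the most neighbouring start sites (30 genes on each side, without members and comparison genes) within 1 kb of a B6 peak. An offset was clear when over 40% of neighbours matched, at least 1.5 times the count at the best offset over 5 kb away, and at least 1 side alone gave it within 1 kb. The offset was then moved nearby to the one with the most of these start sites inside a B6 peak, the middle one where several tied. In this way 20220 of 26794 genes (75.5%) were placed. Offsets from the B6-TgYF list moved no member by more than 225 bp, and 99.7% of start sites placed with both lists by at most 500 bp. Because the offsets were fitted to B6 peaks, shares of marked genes lean on that fit. So do the counts of start sites covered by a peak and the distances from start sites to peaks and summits. The conversion code was tested on simulated data, which checks the code and not the real positions. Converted positions are not printed.

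Members and gene lists were chosen with earlier results of these data known. All members with a peak are named with values. Of the other late genes, the 2 with the highest and the 2 with the lowest B6 fold among those marked in all lists are named. Peaks on the Y chromosome, DMC1 libraries and signal tracks were not analysed here. The software was scipy 1.17.1, pandas 2.3.3 and numpy 2.4.6 under Python 3.11.15, with figures by matplotlib 3.10.9.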

Additional observations from a re-analysis of the deposited data

How the results depend on the processing

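The counts of marked members, the median percentile and width of their peaks, and the share of all genes were recomputed under other choices, giving 70 values. Within 1.5 times for a count, or within the 95% interval for a median or share, 54 stayed and 16 moved. Those counted as staying include 9 of 25 members marked in B6 with the stronger 50% of the list, 8 of 18 with 15 neighbours on each side, and a median percentile of 63.7, from 79.9, without members beside another start. Leaving out members with another start site within 2 kb left 13 members, of which 5 were marked in B6, 6 in B6-TgWT, 5 in B6-TgYF and 5 in all lists. A stricter offset rule (over 50% of neighbours, both sides) also left 13 members, with 6, 8, 6 and 6 marked. Both choices leave fewer members by construction. The stricter rule lost Dpy19l2, Gsg1, Izumo1, Ldhc, Tekt1 and Zpbp2 from the members marked in B6. Of those with no other start site within 2 kb, only Spata16 stayed, so positions of the others are less firm. With peaks within 0.5 kb, within 2 kb or over the start site itself, 11, 14 and 10 members were marked in B6: Gsg1 dropped out at 0.5 kb, Tnp2 and Tssk1 came in at 2 kb, and Gsg1 and Tssk3 dropped out without a margin. The share of all genes with a B6 peak was 60.0% within 0.5 kb, 63.9% within 2 kb, 57.6% over the start site, 55.7% with the stronger 50% of the list, 63.7% with the stricter offset rule, 63.9% with 15 neighbours on each side, 77.8% for protein-coding genes and 59.2% with the looser offset rule. That rule and offsets fitted on the B6-TgYF list were chosen after seeing the data. No paired analysis was possible because both replicates of a line share 1 peak list, and for the same reason leaving out a replicate was not run. Depth is unknown, so a missing peak does not show that the mark was absent.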
